A study of Homo sapiens with 7 samples.

Results

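MiR-221 and miR-222 are a pair of microRNAs cut from neighbouring hairpins of one primary transcript. Both were measured on TaqMan low density cards in lung-derived lines of MDA-MB-435, and the assays named miR-221 and miR-222 were taken from every card, 2 of the 377 human microRNA assays present. The pair was chosen by earlier results of the same cards, namely the higher level of miR-221 in the polymetastatic lines beside a miR-222 that was not higher there. The group differences of both microRNAs are therefore given below as descriptions, with a standard error and without a test.

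MDA-MB-435, an established cell line, was long used as a human breast cancer model and later assigned to melanoma by its genotype. Here all lines carry green fluorescent protein and had passed through the lungs of athymic female mice, with G418 used to select the tumor cells. The 3 oligometastatic L1-R2 lines (MDA-MB-435-L1-GFP, Ol-like in the labels) were 3T, 4T and 8T, and came from mice that had received L1-R1 cells, grown from a lung macrometastasis. The 4 polymetastatic L1Mic-R2 lines (MDA-MB-435-L1Mic, Poly-like in the labels) were 2T, 3T, 7T and 8T, and came from mice that had received L1Mic-R1 cells, grown from tumor cells in a part of the same lung without macrometastases. Each line was grown from a distinct animal, but each group descends from a single R1 line, so that the phenotype and the R1 line of origin cannot be told apart. One card was run per line and each microRNA had 1 well per card. For lines 3T and 4T of L1-R2 the names of the deposited files exchange the numbers used in the labels, and the labels were followed.

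The measurement is the threshold cycle (Ct), the PCR cycle at which fluorescence crosses a fixed threshold. It is a log2 scale on which 1 cycle stands for a doubling of RNA and a lower value for more RNA. Between 160 and 184 microRNAs per line had a Ct below 38, the limit used here for detection. By group there were 172, 177 and 184 in the L1-R2 lines and 160, 164, 167 and 172 in the L1Mic-R2 lines. U6, the only RNA measured in 4 wells per card, had wells within 0.0598 to 0.211 cycles of each other, which gives the scale of the error between wells for an abundant RNA. The cards of the L1-R2 lines were numbered 1 to 3 and those of the L1Mic-R2 lines 4 to 7, so that card number and group cannot be told apart. Whether the numbers follow an order of running is not given. The number of cards limits the precision of every value below.

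A microRNA finds its target mRNAs mainly through its seed, bases 2 to 8 from the 5′ end, and lowers their translation and stability. MiR-221 and miR-222 are raised in many solid tumors and in advanced melanoma, where the repressor PLZF (ZBTB16) holds them down in normal melanocytes. Their best known targets are CDKN1B, which encodes the cell cycle inhibitor p27, and KIT, the stem cell factor receptor of melanocytes.

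The mature sequences are shown first because the pair has one seed in common and differs only beyond it. The seed is in capitals.
miR-221: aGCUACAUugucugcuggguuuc
miR-222: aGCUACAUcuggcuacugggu

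In the RefSeq table the first, hsa-miR-221-3p, lies at chrX:45746180-45746202 and the second, hsa-miR-222-3p, at chrX:45747036-45747056, both on the minus strand of GRCh38. Both assays bear the older name without an arm, which stood for this arm. The first 8 bases were identical and the first difference was U9C, counted from the 5′ end with the base of miR-221 first. Over the 21 positions that both have, 11 were identical, and miR-221 extends 2 bases further. No other of the 2370 mature microRNA names in the table had this seed. A TaqMan microRNA assay starts from a stem-loop primer that pairs with the 3′ end of the mature strand, and there the last bases are gguuuc in miR-221 and cugggu in miR-222.

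The 2 hairpins are shown with the measured arm in capitals, because they are the neighbouring segments of the one transcript that carries both.
MIR221: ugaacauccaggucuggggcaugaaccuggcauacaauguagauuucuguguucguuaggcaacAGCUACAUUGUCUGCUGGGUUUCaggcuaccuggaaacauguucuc
MIR222: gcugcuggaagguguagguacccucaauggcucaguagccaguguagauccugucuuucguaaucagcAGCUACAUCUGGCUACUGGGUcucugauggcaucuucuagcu

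Each hairpin is 110 bases long, MIR221 at chrX:45746157-45746266 and MIR222 at chrX:45747015-45747124, with 748 bases between them. Both lie inside the long non-coding RNA gene MIR222HG at chrX:45745214-45770267, also on the minus strand, so that MIR222 comes first in the transcript. The table used here gives no exons, and the position relative to them was not analysed here.

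Both microRNAs were detected in all 7 lines, at very different cycles. Raw Ct of miR-222 in L1-R2 was 21.90 in line 3T, 21.98 in 4T and 22.21 in 8T. In L1Mic-R2 it was 22.17 in line 2T, 22.53 in 3T, 22.58 in 7T and 23.14 in 8T. MiR-222 was thus one of the earliest assays on every card, from rank 3 to rank 8 among 377 microRNAs, where rank 1 has the lowest Ct. Raw Ct of miR-221 in L1-R2 was 31.83 in line 3T, 32.37 in 4T and 31.26 in 8T. In L1Mic-R2 it was 29.07 in line 2T, 29.75 in 3T, 30.33 in 7T and 29.23 in 8T. MiR-221 therefore stood much later, at rank 95 to 107 in the L1-R2 lines and at rank 64 to 83 in the L1Mic-R2 lines. A Ct also depends on the assay, so that ranks of different assays are not amounts.

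**Figure D1:**
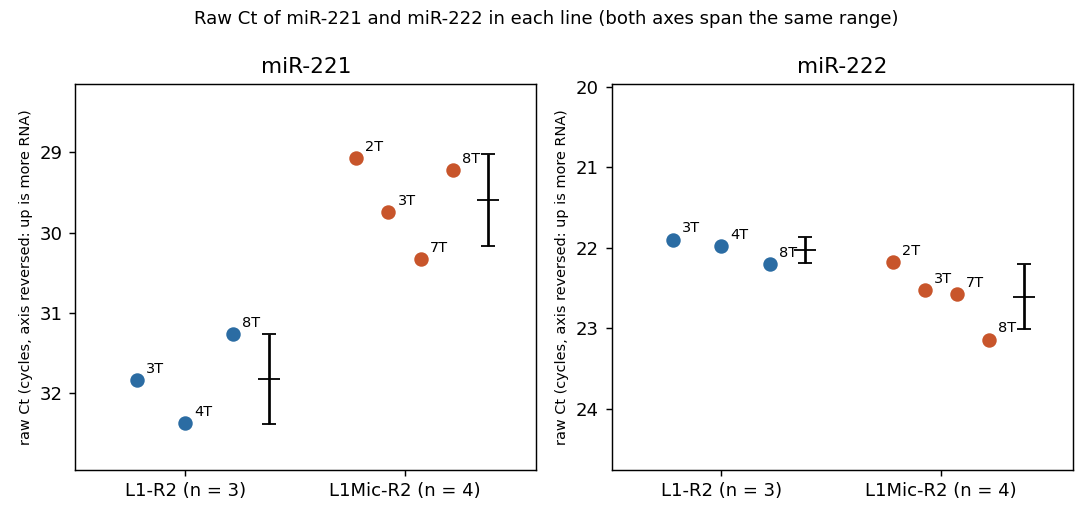
Raw Ct in cycles of miR-221 (left) and miR-222 (right) in each L1-R2 line (blue) and L1Mic-R2 line (orange), with the mean and SD of the group in black. The axes are reversed, so that up is more RNA, and span the same number of cycles. All 4 L1Mic-R2 lines lie above all 3 L1-R2 lines for miR-221, and the groups overlap for miR-222.

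Every L1Mic-R2 line had more miR-221 than every L1-R2 line. Raw Ct averaged 31.82 ± 0.55 (SD, n = 3) over the L1-R2 lines and 29.59 ± 0.57 (SD, n = 4) over the L1Mic-R2 lines, and the closest lines of the 2 groups were 0.931 cycles apart. After quantile normalization, which gives all cards the same distribution of Ct, they were 31.99 ± 0.51 (SD, n = 3) and 29.57 ± 0.71 (SD, n = 4). L1Mic-R2 minus L1-R2 gave a log2 difference of 2.41 (standard error 0.46), a 5.32-fold higher level in L1Mic-R2. Of the 181 microRNAs with a Ct below 38 in at least 3 lines, 9 had a larger positive difference, and the median over all 181 was 0.06. The groups of 19.3% of these 181 did not overlap in normalized Ct, with miR-221 among them.

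MiR-222 did not follow. Its raw Ct averaged 22.03 ± 0.16 (SD, n = 3) over the L1-R2 lines and 22.61 ± 0.40 (SD, n = 4) over the L1Mic-R2 lines, a shift towards less RNA in L1Mic-R2, and line 2T of L1Mic-R2 lay within the range of the L1-R2 lines. In raw Ct the median log2 difference of all microRNAs tested was -0.25, also towards less RNA in L1Mic-R2. After quantile normalization the log2 difference of miR-222 was -0.41 (standard error 0.31), a smaller distance than 1 SD of its normalized values in L1-R2 (0.549). Normalized values of miR-222 move in steps, since so few assays are as early: its Ct became 22.56 on each of the 4 cards where it held rank 8. Within groups miR-222 also varied less than its partner. The SD within groups of raw Ct was 0.326 for miR-222 and 0.562 for miR-221, against a median of 0.437 over the 135 microRNAs detected in all 7 lines.

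The scale decides the sign for miR-222 and not for miR-221. The small nucleolar RNAs RNU44 and RNU48, common reference RNAs, had a raw Ct later in L1Mic-R2 by 0.883 and 0.722 cycles on average, and in L1-R2 line 4T they came at 23.67 and 18.81 cycles, earlier than in the other 6 lines. U6 differed by 0.0557 cycles between the group means. Relative to U6 the log2 difference was 2.28 (standard error 0.55) for miR-221 and -0.52 (standard error 0.26) for miR-222. Relative to the mean of RNU44 and RNU48 it was 3.03 (standard error 0.77) and 0.22 (standard error 0.52), with the median of all microRNAs moved to 0.56. Measured from the median of all microRNAs, miR-221 was 2.36 higher after quantile normalization and 2.47 higher on the other scales. MiR-222 lay at -0.47 from the median after quantile normalization and at -0.33 on the others. Apart from quantile normalization, the scales shift all microRNAs of a card by the same amount. Their distances to the median are therefore equal by construction and are no separate support. The part of the reference RNAs in these values was not tested.

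**Figure D2:**
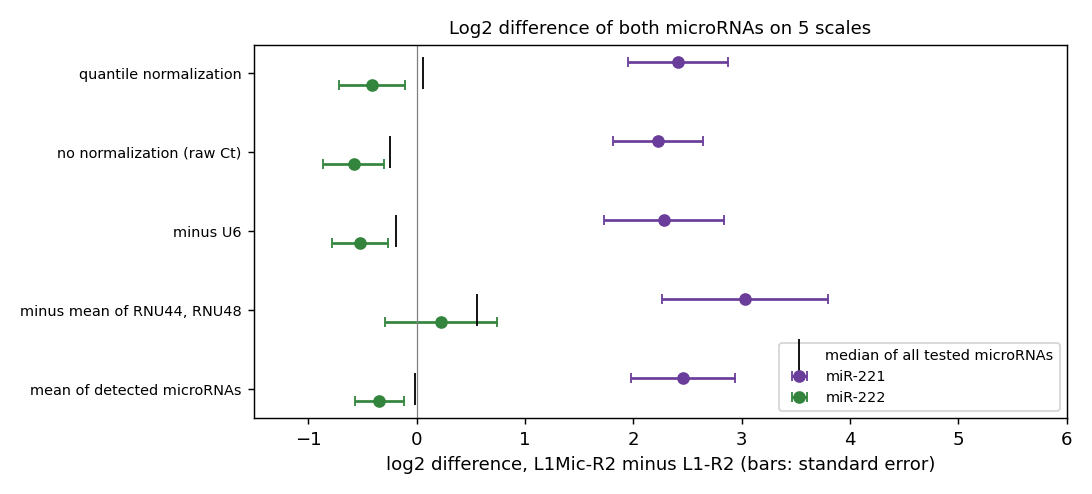
Log2 difference of L1Mic-R2 minus L1-R2 for miR-221 (purple) and miR-222 (green) on 5 scales, with the standard error from limma as bars and the median of 181 microRNAs as a black stroke. MiR-221 stays between 2.23 and 3.03. MiR-222 lies left of the median and changes sign with RNU44 and RNU48. Its distance to the median is the same by construction on all scales except quantile normalization.

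In the limma fit across the card, 9 of the 181 microRNAs (4.97%) had a Benjamini-Hochberg adjusted p under 0.05. Of the pair 1 of 2 was among them, miR-221. Since the pair was chosen with this contrast known, nothing is read from that count.

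The distance between the assays within a line is free of any shift of the whole card. The raw Ct of miR-221 minus that of miR-222 in L1-R2 was 9.94 cycles in line 3T, 10.38 in 4T and 9.05 in 8T. In L1Mic-R2 it was 6.90 cycles in line 2T, 7.22 in 3T, 7.75 in 7T and 6.08 in 8T. The groups did not overlap, with 1.31 cycles between the closest lines. The mean distance was 9.79 ± 0.68 (SD, n = 3) among the L1-R2 lines against 6.99 ± 0.70 (SD, n = 4) among the L1Mic-R2 lines, so that the pair lay 2.80 cycles closer together in the polymetastatic lines. After quantile normalization the distance was 9.97 ± 0.44 (SD, n = 3) and 7.15 ± 0.64 (SD, n = 4). Most of the change came from miR-221, whose mean raw Ct moved by 2.23 cycles against 0.579 in the other direction for miR-222.

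**Figure D3:**
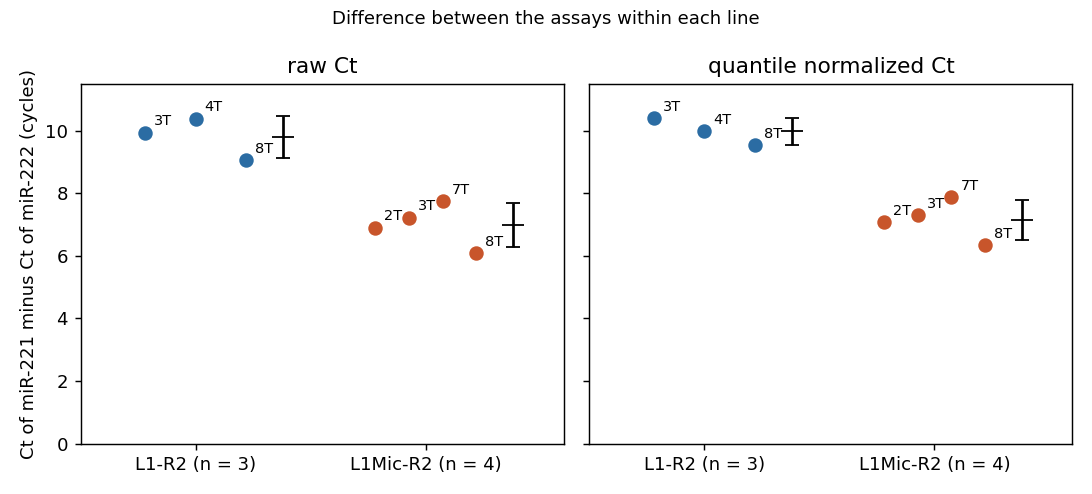
Ct of miR-221 minus Ct of miR-222 in cycles within each line, for raw Ct (left) and quantile normalized Ct (right), with the mean and SD of each group in black. The L1-R2 lines lie at 9.05 cycles or more and the L1Mic-R2 lines at 7.75 or less in raw Ct.

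Within a group, the line with the latest miR-221 was not the line with the latest miR-222. In L1-R2, line 4T had the latest miR-221, with a raw Ct 0.546 cycles above the mean of its group, and its miR-222 lay at -0.0466 cycles from the mean, within the spread of the U6 wells. In L1Mic-R2, line 7T had the latest miR-221 at 0.733 cycles from the mean, with miR-222 at -0.0265. Line 8T of L1Mic-R2 lay at -0.368 cycles for miR-221 and at 0.536 for miR-222, and line 2T was early in both, at -0.52 and -0.433 cycles. Several of these deviations are no larger than the error between wells, and no relation is read from them.

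As both share a seed, their levels were also added. If both assays are taken to double in every cycle with equal efficiency, which was not measured here, miR-221 made up 0.0748% to 0.188% of the sum in the L1-R2 lines and 0.464% to 1.46% in the L1Mic-R2 lines. The sum thus followed miR-222, and adding miR-221 moved the summed Ct by -0.0211 cycles where it moved it most. An unequal efficiency of the assays would change these shares.

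Pairs of microRNAs from other neighbouring hairpins show how far such distances range on these cards, a comparison chosen after the values of the pair were seen. Among the microRNAs detected in all 7 lines, 101 could be placed on a single hairpin of the RefSeq table, and 32 pairs of them came from different hairpins on the same strand with at most 10000 bases between. Several of these pairs share an assay. The raw Ct distance within the other 31 pairs had a median of 4.61 cycles and reached 10.26 for miR-106a and miR-363, so that the 8.19 cycles of miR-221 and miR-222, averaged over the lines, were exceeded in 3 of them. The distance changed between the group means by a median of 0.341 cycles in the other pairs and by at most 1.65 in either direction, in miR-191 and miR-425, against 2.80 for miR-221 and miR-222. Over the 7 lines the SD of the distance was 1.63 cycles for miR-221 and miR-222, second after the 1.71 of miR-506 and miR-508-5p, with a median of 0.514 in the others. The pair was chosen because its members differed between these groups. Its place by the change and by this SD follows in part from that choice, and nothing is read from it.

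**Figure D4:**
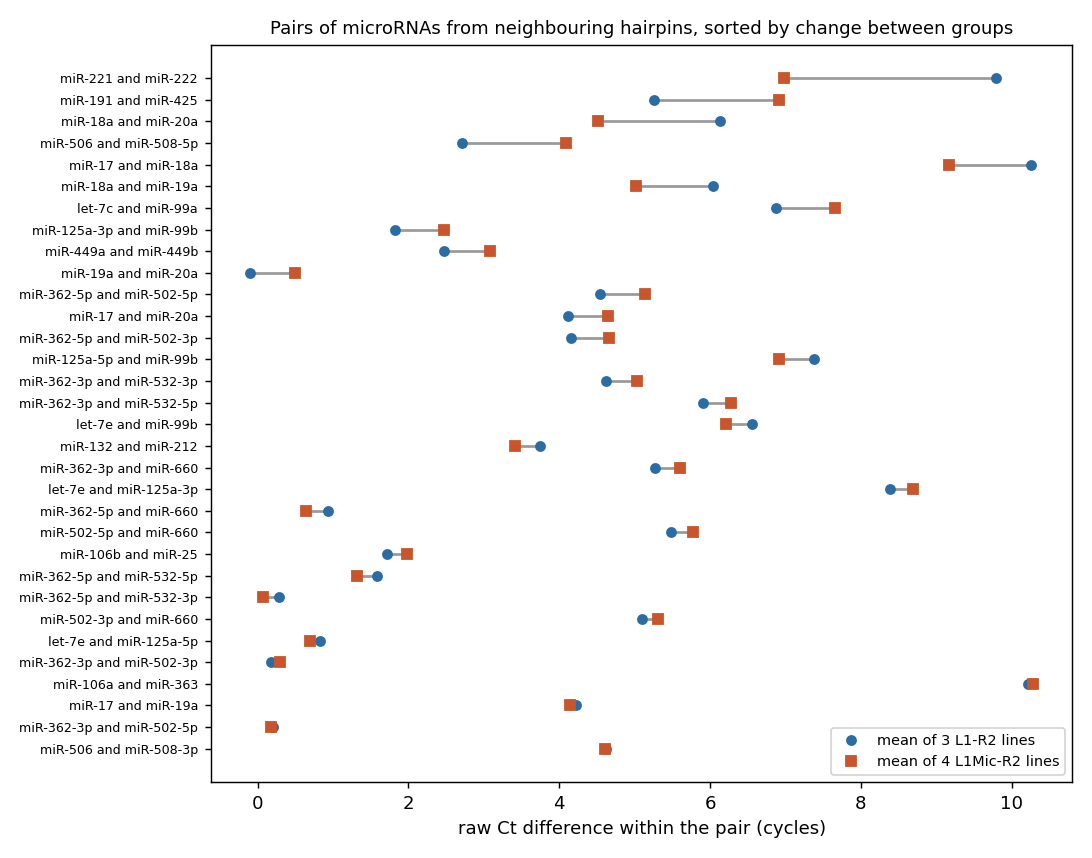
Raw Ct difference in cycles within 32 pairs of microRNAs from neighbouring hairpins, as the mean of the L1-R2 lines (blue circles) and of the L1Mic-R2 lines (orange squares), sorted by the change between groups. MiR-221 and miR-222, chosen because they differed between the groups, are at the top with 9.79 and 6.99 cycles.

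The microRNAs most like each member were found by the SD, over the 7 lines, of the raw Ct difference to it, where a smaller SD means a more similar course. Those closest to miR-221 were miR-876-5p (0.608), miR-149 (0.621), miR-210 (0.726), miR-744 (0.775) and miR-18a (0.876), against a median of 1.51 cycles over the 134 others. Their log2 differences after quantile normalization ran from 1.31 for miR-210, a hypoxia-induced microRNA, to 3.21 (standard error 0.57) for miR-876-5p. The raw Ct of miR-876-5p was late, with a mean of 36.59 in L1-R2 and 34.55 in L1Mic-R2. The measure takes in the difference between the groups, so that a direction shared with miR-221 follows from how the 5 were chosen. MiR-18a belongs to the miR-17-92 cluster, whose miR-17, miR-19a, miR-19b, miR-20a and miR-92a were less like miR-221, with an SD of 1.26 to 1.48. MiR-222 ranked 84th of 134, with an SD of 1.63. The pair was chosen because its members differed between the groups, so that nothing is read from this rank.

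Those closest to miR-222 were miR-320 (0.256), miR-125b (0.264), miR-9 (0.264), let-7g (0.274) and miR-29b (0.281), with a median of 0.565 over the others. Their log2 differences were between -0.38 for miR-320 and 0.16 for miR-125b. Seen from miR-222, miR-221 came 132nd of 134, with an SD of 1.63, a rank that the choice of the pair affects in the same way. Once the mean of each group was removed, so that the difference between groups no longer counts, miR-222 ranked 41st from miR-221 and miR-221 ranked 103rd from miR-222. The SD between the members was then 0.689, against a median over the others of 0.798 for miR-221 and 0.442 for miR-222. None of the 5 closest microRNAs of either member stayed among its 5 closest on that measure.

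**Figure D5:**
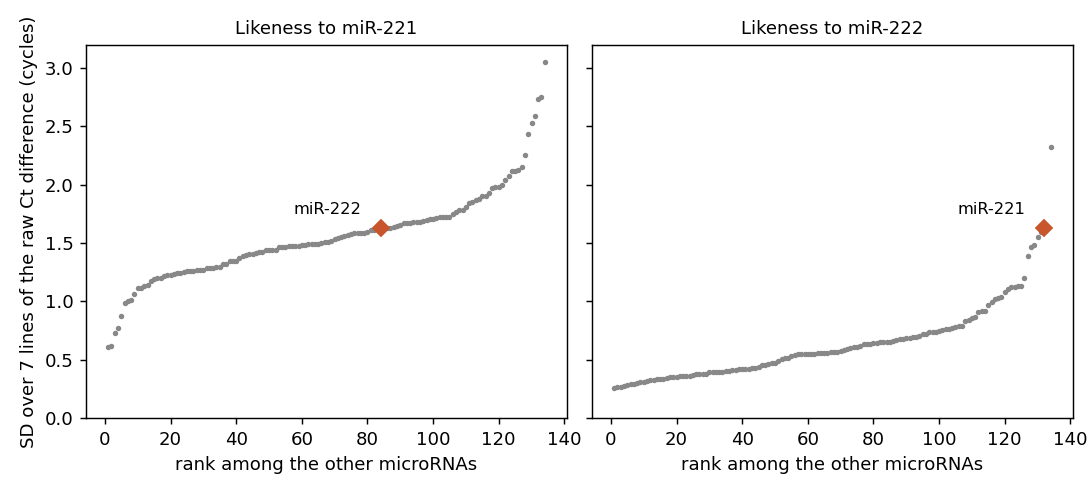
SD over 7 lines of the raw Ct difference, in cycles, to miR-221 (left) and to miR-222 (right) for each of 134 other microRNAs detected in all lines, sorted from most to least alike. The partner is marked by a diamond, at rank 84 on the left and 132 on the right. Both ranks take in the group difference by which the pair was chosen.

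Other microRNAs linked to melanoma or melanocytes were listed from general knowledge. Of 24 on the card 18 were tested, 5 higher and 13 lower in L1Mic-R2, with a median log2 difference of -0.58 against 0.06 for all microRNAs. Over the whole card 3.31% of the microRNAs tested were called higher and 1.66% lower. The share of higher among the calls was 66.7%, but it was 12.5% with U6 and 50% for raw Ct and for scaling to the mean of detected microRNAs. In this list 1, miR-509-3-5p of the miR-506 family on chromosome X, was called lower at -2.71 (standard error 0.53, limma adjusted p = 0.0392) and 0 were called higher. The list had 0 calls in 6 of the 7 fits without one line, and likewise for raw Ct, relative to RNU44 and RNU48, and relative to the mean of the detected microRNAs. MiR-211, made from the melastatin gene TRPM1 of melanocytes, was at -6.57 (standard error 2.97) and was below 38 in all 3 L1-R2 lines and in 2 of the 4 L1Mic-R2 lines. MiR-137, described to lower the melanocyte factor MITF, was at -4.21 (standard error 1.43). It was below 38 in all 3 L1-R2 lines and in 1 L1Mic-R2 line, with the other L1Mic-R2 lines at 40. Both miR-211 and miR-137 passed the filter only with the group where they were higher, so that nothing is read from their differences. They count among the 13 lower. The 2 highest were miR-155, an inflammation-linked microRNA, at 0.56 (standard error 0.27) and miR-31 at 0.29 (standard error 0.32).

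The last list holds other microRNAs of chromosome X, where MIR221 and MIR222 lie. Of 50 on the card 42 matched the RefSeq table, all of them on X, and 30 of the 50 were tested. Their median log2 difference was -0.03, against 0.06 for all microRNAs tested, with 14 higher and 16 lower in L1Mic-R2. Of the 30 tested, 2 were called, miR-509-3-5p, given above, and miR-542-5p of the miR-424 cluster. Among all microRNAs tested on the card 4.97% were called. The list had 0 calls in 5 of the 7 fits without one line. MiR-542-5p was below 38 in none of the L1-R2 lines and in 3 of the L1Mic-R2 lines, with a mean normalized Ct of 39.90 and 37.02. It thus passed the filter only through the group where it was higher, and its mean in L1-R2 is close to the 40 given to empty wells, so that nothing is read from its call. At the ends of the other values were miR-18b of the miR-106a cluster at 3.86 (standard error 0.83), the myeloid miR-223 at 3.07 (standard error 1.26) and miR-508-5p at -1.75 (standard error 0.72). MiR-18b was below 38 in 2 L1-R2 lines and 4 L1Mic-R2 lines, and miR-223 in 1 L1-R2 line and 3 L1Mic-R2 lines. Both passed the filter only with the group where they were higher, so that nothing is read from their differences.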

How the data were processed

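For each of 3 L1-R2 and 4 L1Mic-R2 lines, RNA was run on 1 TaqMan microRNA card (Human Array A) by real-time PCR. The authors deposited a Ct per well and an average Ct per assay in cycles, a log2 scale, read with SDS RQ Manager at a threshold of 0.3, before quantile normalization. Wells marked Undetermined carry 40 as their average Ct and stayed at 40. On the assay and the injection the study's methods (TaqMan, tail vein) were followed over the labels (SYBR, mammary fat pad).

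The 381 assays of all cards were brought to one Ct distribution by quantile normalization (limma 3.58.1, R 4.3.3), the normalization the study names. MicroRNAs with a Ct below 38 in at least 3 lines (181 of 377) entered one limma fit (lmFit, eBayes) on 40 minus Ct, and p-values were adjusted after Benjamini and Hochberg. The p-values measure the spread between lines derived from 1 cell line. The functions were tested on simulated data. The members, the lists of related microRNAs, and the rule for named microRNAs (the pair, the control RNAs, the 5 most alike of each member, and of each list the called members and the 2 highest and 2 lowest differences) were chosen with earlier results of these data known. A further list of microRNAs with related targets is not reported here. The alternatives were other normalizations, limits of Ct, detection filters and fits, a block on the replicate number, and leaving out 1 line at a time. Only the numbers 3 and 8 occur in both groups, so that a block takes its difference from 2 pairs of lines. Sequences and positions are from RefSeq, GRCh38.p14.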

Additional observations from a re-analysis of the deposited data

Results flagged for a closer look

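One L1Mic-R2 line was set apart from the remaining 3 by most of the group's range in 5 of 27 results checked. Chance gives about 1.35 for 27 groups of untied values, but these results were chosen with earlier results known and several hold ties or the value 40 of empty wells, so that the 5 are not read against it. In the pair, the normalized Ct of miR-222 in line 2T was 22.02, while the other 3 lines shared 22.56, the value of rank 8. The raw Ct of miR-222 in line 2T did not stand apart in this way. Line 2T also had a normalized Ct of 28.21 for miR-210, against 29.09 to 29.21 in the others. Line 8T stood apart for miR-744 (30.49, others 31.22 to 31.37) and miR-137 (34.91, others at 40). Line 7T stood apart for miR-223 (40, others 35.25 to 35.51).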

How the results depend on the processing

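The log2 difference of miR-221 stayed positive under all 15 alternatives, from 2.23 to 3.03 under other scales, limits and blocks and from 2.14 to 2.67 without one line. The limits of Ct at 38 and 35 could not change the differences of the pair, whose Ct lay below both in every line. The place of miR-221 among the 9 calls, from which nothing is read, was kept in 1 of 7 fits without one line, the one without L1Mic-R2 line 7T. It was kept in 6 of the 12 other alternatives, and was lost with U6, where 8 microRNAs were called. The log2 difference of miR-222 reversed to 0.22 with RNU44 and RNU48 and ran from -0.72 (without L1-R2 line 4T) to -0.14 (without L1-R2 line 3T). It was -0.82 with a replicate block on the number in the labels, which takes the difference from the 3T and 8T lines only. The distance between the pair changed by -2.82 cycles after quantile normalization, by -3.06 to -2.50 without one line and by -3.15 to -2.80 otherwise. MiR-222 ranked 73rd to 94th in likeness to miR-221 without one line and 41st within groups, and miR-221 ranked 129th to 133rd for miR-222.

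The 9 calls on the card became 14 for microRNAs detected in all 7 lines and 21 with trend and robust. They were 0 without a detection filter (42 at an unadjusted p under 0.05), with RNU44 and RNU48 (37), with a two-tailed Student test (35) and with the replicate block by the labels (19, against 35 in limma without the block) or by the file names (27), and 0 to 4 without one line. In each of these 5 settings both lists had 0 calls. Both block fits rest on 2 pairs of lines only. The melanoma list had 0 in place of 1 for raw Ct and the mean of the detected microRNAs, 2 with U6, 3 for detection in all 7 lines and 4 with trend and robust. The list on chromosome X had 0 in place of 2 for raw Ct, the mean of the detected microRNAs and a limit of 35, 1 with U6 and 5 with trend and robust. Without one line each list had 0 to 1, with 1 call in the melanoma list only without L1Mic-R2 line 8T and in the list on chromosome X only without L1Mic-R2 line 7T or 8T. Same-numbered lines did not deviate together (correlation over the 181 microRNAs -0.044 for 3T and -0.197 for 8T), so that the number was not taken as a pairing. The cause of these changes was not tested. Single wells and 3 against 4 cards limit every value.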
